A study of Mus musculus with 21 samples.

Results

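The p53 pathway was followed through 10 genes, namely Trp53 itself and 9 genes known as its targets or as DNA damage response genes (Mdm2, Cdkn1a, Gadd45a, Gadd45b, Gadd45g, Sesn1, Ccng1, Trp53inp1 and Phlda3). They were chosen by name from the 17164 genes of the count table, and all 10 were among the 16797 genes that passed the filter on low counts. The sequenced RNA came from sorted retinal ganglion cells, which send their axons through the optic nerve to the brain. The C57BL/6 mice were 6 to 7 weeks old per the sample sheet and had an optic nerve crush 3 days earlier.

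The cells had received single guide RNAs (sgRNAs) against ATF3 (n = 5 libraries), ATF4 (n = 2), CEBPG, the label's CEBPγ (n = 4), or CHOP, the product of Ddit3 (n = 5), or a control (n = 4, genotype label WT Control). All groups shared the strain and the nerve crush, and no group without injury was analysed here. The sources used here do not give how the guides and the nuclease were delivered or what share of cells was edited. Values listed by library follow the replicate numbers of the labels, which are 5 to 9 for ATF3, 1 and 3 for ATF4, 6, 8, 9 and 10 for CEBPG, 1 to 5 for CHOP, and 4, 5, 7 and 8 for control. Counted reads per library ran from 25267560 to 32776378 for ATF3, from 11929692 to 12404601 for ATF4, from 9000250 to 29810987 for CEBPG, from 14272784 to 31543917 for CHOP and from 6401446 to 11752828 for control. The sample sheet places the ATF3, CEBPG and CHOP libraries in batch 3 and female mice and the controls in batch 2 and male mice. It places the ATF4 libraries in batch 1, with replicate 1 female and replicate 3 male, though both held reads of the Y-linked gene Ddx3y. Every comparison against control is therefore also one between batches and cannot be told apart from it. For the ATF3, CEBPG and CHOP knockouts it is one between sexes too. These knockouts can be compared with each other within batch 3. CEBPG replicates 6 and 8 stood far from all other libraries on the fourth principal component of log2 expression, at -99.3 and 102.1.

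p53 is a transcription factor that the kinases ATM and CHK2 stabilise when DNA is damaged. It then switches on genes that halt the cell cycle (Cdkn1a), repair DNA, limit growth signalling (Sesn1, Phlda3) or start apoptosis (Bax, Bbc3), together with its own inhibitor Mdm2. Several of these genes, among them Gadd45a and Sesn2, are also reached by the integrated stress response, in which ATF4, CHOP, ATF3 and C/EBP gamma act as bZIP factors that bind DNA as dimers. Neurons do not divide, so Cdkn1a and Ccng1 serve there outside their usual setting of the cell cycle.

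The promoters of these genes were read first, since the targeted factors and p53 both act on DNA. RefSeq promoters of GRCm38.p6, which is the mm10 build, were matched for 9 of the 10 genes, as 11 entries that run from 250 bases before to 50 bases after each start site. A motif for the p53 consensus decamer, of which a full p53 site holds a pair, was searched on both strands, together with the C/EBP-ATF response element (TGATGNAAN), the CRE (TGACGTCA) and the AP-1 site (TGANTCA). The p53 decamer was found in 6 of the 9 genes, against 8.36% of 32851 promoters of that length. That share is per promoter entry, while a gene was counted by any of its entries. Cdkn1a and Sesn1 each also had an entry without a match. The genes were also chosen as known p53 targets or DNA damage genes. The stretches below show it in capitals for Cdkn1a, Mdm2, Ccng1 and Sesn1, each on the strand of its gene, at chr17:29090872-29090971 (plus), chr10:117710890-117710989 (minus), chr11:40755417-40755516 (minus) and chr10:41887221-41887320 (plus). The Trp53 match at chr11:69580274-69580303 (plus) and the Gadd45a match at chr6:67037428-67037457 (minus) lie in or beside an annotated GENCODE exon, and 30 bases are given for each. In Gadd45g, at chr13:51846527-51846626 (plus), the capitals mark a C/EBP-ATF response element on the opposite strand.
Cdkn1a: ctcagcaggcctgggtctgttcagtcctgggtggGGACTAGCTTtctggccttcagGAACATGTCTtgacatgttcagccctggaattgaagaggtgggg
Mdm2: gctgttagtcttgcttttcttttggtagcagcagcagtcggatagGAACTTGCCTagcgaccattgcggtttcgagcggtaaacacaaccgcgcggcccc
Ccng1: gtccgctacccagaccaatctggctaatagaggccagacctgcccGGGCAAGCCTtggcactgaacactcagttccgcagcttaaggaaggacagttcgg
Sesn1: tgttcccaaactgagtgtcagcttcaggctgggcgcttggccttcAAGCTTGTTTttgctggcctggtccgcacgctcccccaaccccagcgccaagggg
Trp53: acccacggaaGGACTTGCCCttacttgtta
Gadd45a: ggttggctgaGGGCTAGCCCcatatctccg
Gadd45g: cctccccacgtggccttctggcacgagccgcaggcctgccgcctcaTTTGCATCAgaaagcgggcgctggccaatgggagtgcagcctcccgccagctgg

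Cdkn1a was the one gene with a pair of exact decamer matches, 12 bases apart. Of all promoters, 0.0731% held such a pair with at most 13 bases between. Decamers with a mismatch were not searched for, so a pair that includes one would be missed. The bases directly after the Cdkn1a match GAACATGTCT, tgacatgttc, differ from the consensus at their first base only. The C/EBP-ATF response element was found in Gadd45g alone and in 3.95% of all promoters. Neither the CRE, present in 1.79% of all promoters, nor the AP-1 site, present in 7.81%, was found in any of the 9. These matches describe letters in a window and show no binding.

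Among the controls the 10 genes were spread widely in level. Per kilobase of annotated exon, Gadd45a was highest at 51.1 ± 6.73 CPM (read count scaled to a fixed library size) per kb (SD, n = 4), followed by Sesn1 at 42.1 ± 5.65, Gadd45g at 41.4 ± 5.35 and Ccng1 at 40.5 ± 4.88 CPM per kb. Gadd45b (26.1 ± 6.07) and Mdm2 (25.2 ± 4.57) came next, and then Phlda3 at 11.7 ± 3.70, Cdkn1a at 8.51 ± 2.45, Trp53 at 5.99 ± 1.51 and Trp53inp1 at 4.10 ± 1.71 CPM per kb. Neighbours in this order overlapped between control libraries, except at the steps between Ccng1 and Gadd45b and between Mdm2 and Phlda3. The order was not the same in the knockouts: Gadd45g ranked 1 of 10 in the ATF4 knockouts, and Ccng1 ranked 1 of 10 in the ATF3, CEBPG and CHOP knockouts. All other levels in the text are CPM per gene, scaled by trimmed mean of M-values (TMM) factors, and differences are log2 fold changes with their standard errors (SE) from 1 edgeR quasi-likelihood fit of 20 libraries. A gene was called higher or lower at a Benjamini-Hochberg adjusted p below 0.05 over all 16797 genes.

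**Figure D1:**
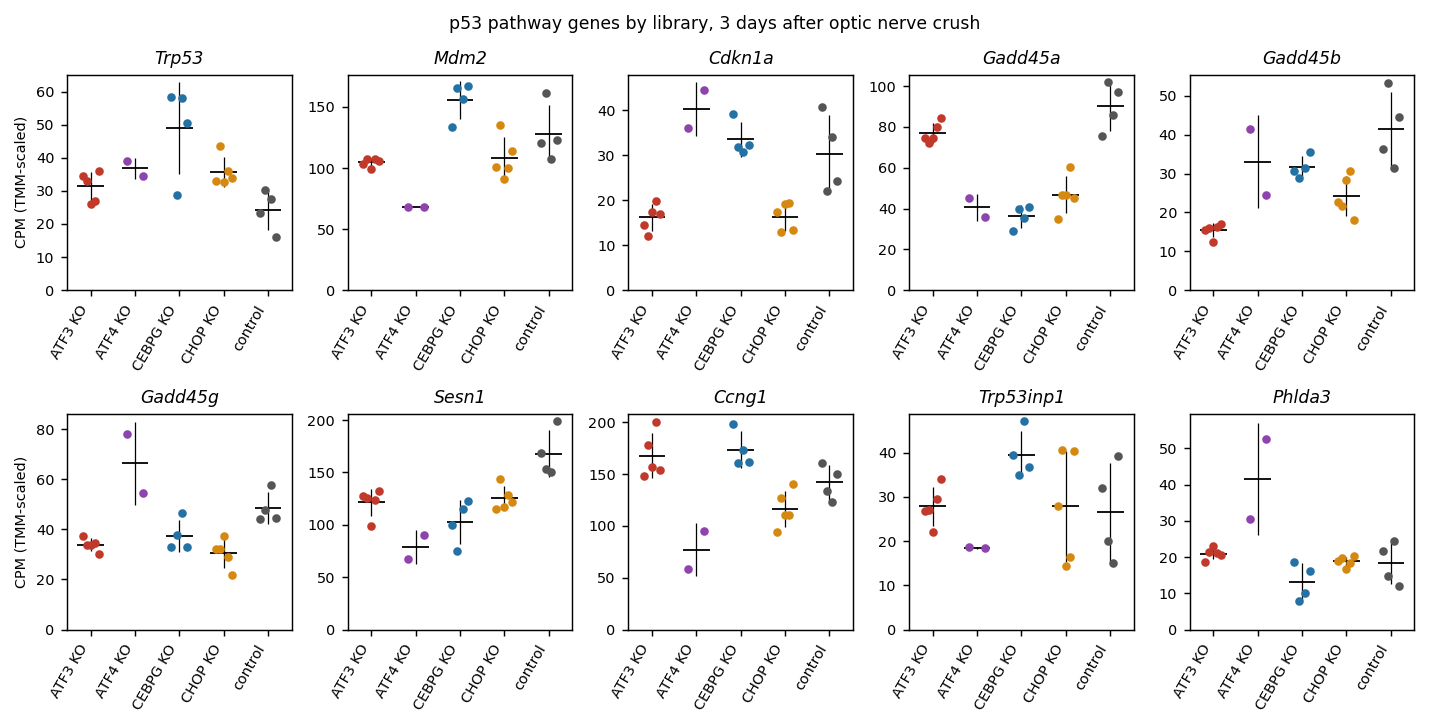
CPM (y axis, TMM-scaled) of each of the 10 genes in every library of the ATF3, ATF4, CEBPG and CHOP knockouts and of the control (x axis). Points are libraries, horizontal bars group means and vertical bars 1 SD. Cdkn1a sits below 20 CPM in the ATF3 and CHOP knockouts and above 30 CPM in the CEBPG and ATF4 knockouts, and every knockout library has less Sesn1 than the lowest control.

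Against control, the calls among the 10 genes are given beside the share of all genes called. In the ATF3 knockouts 0 rose (0 also at an unadjusted p below 0.05 and 0 by DESeq2) and 4 fell (Cdkn1a, Gadd45b, Gadd45g and Sesn1), or 40% of the 10 beside 33.4% of all genes called. For ATF4, 1 rose (Phlda3) and 4 fell (Mdm2, Gadd45a, Sesn1 and Ccng1), or 50% beside 31.3% of all genes. With CEBPG as the target, 1 rose (Trp53) and 2 fell (Gadd45a and Sesn1), or 30% beside 33.4%. The CHOP knockouts had 1 rise (Trp53) and 5 falls (Cdkn1a, Gadd45a, Gadd45b, Gadd45g and Sesn1), or 60% beside 33.5%. The ATF3 and CEBPG shares lie near those of all genes and carry no statement about the pathway. The ATF4 and CHOP shares cannot be told apart from batch. Of all genes, 18.6% were called higher and 14.8% lower with ATF3 targeted, 16.6% and 14.6% with ATF4, 18.3% and 15% with CEBPG, and 18.1% and 15.4% with CHOP. The libraries of knockout and control did not overlap for 5 of the 10 genes with ATF3 targeted (34.3% of all genes), 6 with ATF4 (44.8%), 2 with CEBPG (26.9%) and 6 with CHOP (28.9%). The median log2 fold change of the 10 genes was -0.26, -0.43, -0.11 and -0.35 in these groups, beside 0.06, 0.00, 0.06 and 0.01 over all genes. The 4 comparisons share the same 4 control libraries, so a gene called in several of them was not measured several times independently.

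**Figure D2:**
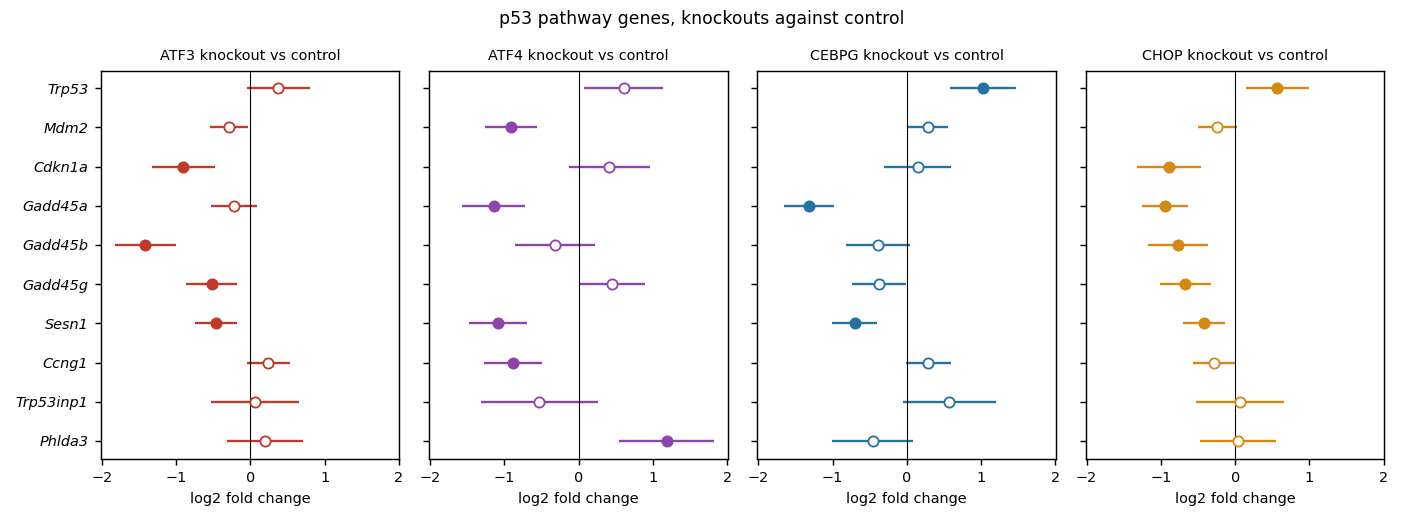
Log2 fold change (x axis) of each gene (y axis) in each of the 4 knockouts over control, with 95% intervals. Filled points have an adjusted p below 0.05; Sesn1 is filled and left of 0 in all 4 panels, and Gadd45a in the ATF4, CEBPG and CHOP panels.

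Trp53, the gene of p53 itself (mm10 chromosome 11, 69580359 to 69591873, plus strand), was higher in the CEBPG and CHOP knockouts. It had 34.5, 33.1, 26.1, 26.9 and 35.9 CPM in the ATF3 knockouts, 39.0 and 34.6 CPM in the ATF4 knockouts, 28.9, 58.0, 50.5 and 58.4 CPM in the CEBPG knockouts and 32.9, 43.6, 32.7, 36.1 and 33.8 CPM in the CHOP knockouts, against 23.2, 30.1, 27.5 and 16.1 CPM in the controls. The CHOP libraries all lay above the highest control, while CEBPG replicate 6 lay among the controls and the other 3 CEBPG libraries above every library of the other groups. Against control the log2 fold change was 1.02 (SE 0.22, adjusted p = 0.000661) in the CEBPG knockouts. It was 0.57 (SE 0.21, adjusted p = 0.035) in the CHOP knockouts and no longer passed when any 1 of CHOP replicates 1, 2 and 4 and control replicates 4 and 8 was left out (adjusted p between 0.0549 and 0.185). In the ATF4 and ATF3 knockouts Trp53 was at 0.61 (SE 0.26, adjusted p = 0.0781) and 0.38 (SE 0.20, adjusted p = 0.172) and did not pass.

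Mdm2 (chromosome 10, 117688875 to 117710758, minus strand) encodes the ubiquitin ligase that marks p53 for degradation and is itself a p53 target. It had 103, 108, 99.3, 107 and 105 CPM in the ATF3 knockouts, 67.9 and 68.1 CPM in the ATF4 knockouts, 166, 157, 167 and 133 CPM in the CEBPG knockouts and 101, 135, 91.2, 100.1 and 114 CPM in the CHOP knockouts, against 120.1, 161, 108 and 123 CPM in the controls. Both ATF4 libraries lay below every other library. The fall in the ATF4 knockouts was -0.91 (SE 0.17, adjusted p = 0.00021). Against control the other knockouts did not pass, at -0.29 (SE 0.12, adjusted p = 0.0768) for ATF3, 0.29 (SE 0.13, adjusted p = 0.098) for CEBPG and -0.24 (SE 0.12, adjusted p = 0.148) for CHOP. The ATF3 value passed with RLE size factors, with DESeq2, in a fit of both groups alone and without control replicate 7 (adjusted p between 0.0305 and 0.0443). The CEBPG value passed without control replicate 5 (0.38, adjusted p = 0.0288), and the CHOP value without CHOP replicate 2 (-0.35, adjusted p = 0.0331).

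Cdkn1a (chromosome 17, 29090976 to 29100727, plus strand) encodes p21, an inhibitor of cyclin-dependent kinases and the classic p53 target. It was at close to the same low level in the ATF3 and CHOP knockouts and higher in the other groups. Its values were 14.5, 12.1, 17.5, 19.9 and 17.0 CPM in the ATF3 knockouts, 36.1 and 44.5 CPM in the ATF4 knockouts, 31.8, 30.8, 32.4 and 39.3 CPM in the CEBPG knockouts and 17.3, 12.9, 19.1, 19.3 and 13.3 CPM in the CHOP knockouts, against 40.7, 22.0, 34.0 and 24.2 CPM in the controls. No ATF3 or CHOP library reached the lowest control, and the controls overlapped with the ATF4 and CEBPG knockouts. The gene fell by 0.90 on the log2 scale (SE 0.21, adjusted p = 0.00145) in the ATF3 knockouts and by 0.89 (SE 0.21, adjusted p = 0.00169) in the CHOP knockouts. In the ATF4 knockouts it was at 0.41 (SE 0.26, adjusted p = 0.256) and in the CEBPG knockouts at 0.15 (SE 0.22, adjusted p = 0.646), neither past the threshold. Cdkn1a overlaps an unconfirmed gene model on the opposite strand that is not among the counted genes, and the sources used here do not say whether reads were counted by strand.

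Ccng1 (chromosome 11, 40748552 to 40755311, minus strand) encodes cyclin G1, which brings a phosphatase to Mdm2. It had 148, 179, 157, 201 and 154 CPM in the ATF3 knockouts, 58.8 and 95.1 CPM in the ATF4 knockouts, 161, 173, 162 and 199 CPM in the CEBPG knockouts and 94.6, 127, 111, 111 and 140.4 CPM in the CHOP knockouts, against 161, 134, 123 and 151 CPM in the controls. The ATF4 libraries lay below all controls. The fall in the ATF4 knockouts was -0.88 (SE 0.19, adjusted p = 0.000954), and without ATF4 replicate 1 it was -0.58 and no longer passed (adjusted p = 0.0678). Against control Ccng1 did not pass for ATF3 at 0.24 (SE 0.14, adjusted p = 0.209), for CEBPG at 0.29 (SE 0.15, adjusted p = 0.14) or for CHOP at -0.28 (SE 0.14, adjusted p = 0.127).

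The Gadd45 genes encode 3 related small stress-induced proteins that bind the kinase MEKK4 upstream of p38, and each had a pattern of its own. Gadd45a (chromosome 6, 67035096 to 67037457, minus strand), the member known as a direct p53 target, had 74.5, 71.9, 74.7, 79.9 and 84.4 CPM in the ATF3 knockouts, 45.4 and 36.0 CPM in the ATF4 knockouts, 39.8, 35.2, 40.8 and 28.8 CPM in the CEBPG knockouts and 34.7, 46.9, 46.7, 60.1 and 45.1 CPM in the CHOP knockouts, against 75.4, 102, 85.9 and 97.2 CPM in the controls. Every ATF4, CEBPG and CHOP library lay below every ATF3 and control library. The gene fell by 1.15 (SE 0.20, adjusted p = 0.000145) in the ATF4 knockouts, by 1.32 (SE 0.16, adjusted p = 6.74e-07) in the CEBPG knockouts and by 0.95 (SE 0.15, adjusted p = 2.33e-05) in the CHOP knockouts on the log2 scale. In the ATF3 knockouts the value was -0.22 (SE 0.15, adjusted p = 0.27, 95% interval -0.53 to 0.08). Gadd45a overlaps E230016M11Rik, a transcript of the opposite strand, over 859 bases, and without a stated strand setting reads of the pair cannot be told apart. That transcript fell in all 4 knockouts, by 0.59 with ATF3 targeted (adjusted p = 0.0275), 1.41 for ATF4 (adjusted p = 0.000506), 1.29 for CEBPG (adjusted p = 6.08e-05) and 0.80 for CHOP (adjusted p = 0.00342).

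Gadd45b (chromosome 10, 80930073 to 80932204, plus strand), known as a target of NF-kappaB and TGF-beta signalling too, was lowest in the ATF3 knockouts. It had 15.5, 16.1, 12.4, 16.2 and 17.2 CPM in the ATF3 knockouts, 41.5 and 24.6 CPM in the ATF4 knockouts, 28.8, 31.5, 35.5 and 30.6 CPM in the CEBPG knockouts and 22.8, 21.7, 28.2, 30.7 and 17.97 CPM in the CHOP knockouts, against 36.4, 53.4, 31.5 and 44.5 CPM in the controls. The ATF3 libraries lay below all 15 others, and the CHOP libraries below all controls. The log2 fold change was -1.42 (SE 0.20, adjusted p = 5.96e-06) in the ATF3 knockouts and -0.77 (SE 0.20, adjusted p = 0.0039) in the CHOP knockouts. It was -0.39 (SE 0.21, adjusted p = 0.164) for CEBPG and -0.33 (SE 0.26, adjusted p = 0.378) for ATF4.

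Gadd45g (chromosome 13, 51846678 to 51848468, plus strand), a growth arrest gene that cytokines induce, had 37.3, 33.9, 33.7, 34.4 and 30.2 CPM in the ATF3 knockouts, 78.2 and 54.6 CPM in the ATF4 knockouts, 37.6, 46.5, 32.9 and 33.2 CPM in the CEBPG knockouts and 32.2, 32.3, 37.5, 28.9 and 21.6 CPM in the CHOP knockouts, against 44.3, 47.6, 57.7 and 44.7 CPM in the controls. All ATF3 and CHOP libraries lay below the lowest control. The gene fell by 0.67 (SE 0.17, adjusted p = 0.00282) in the CHOP knockouts and by 0.52 (SE 0.17, adjusted p = 0.0183) in the ATF3 knockouts on the log2 scale. Leaving out control replicate 7 ended the ATF3 call (-0.43, adjusted p = 0.07). Neither CEBPG at -0.37 (SE 0.18, adjusted p = 0.109) nor ATF4 at 0.45 (SE 0.21, adjusted p = 0.112) passed, and the CEBPG value passed without CEBPG replicate 8 (-0.53, adjusted p = 0.0324).

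Sesn1 (chromosome 10, 41809935 to 41908424, plus strand) encodes sestrin 1, a stress protein that restrains the growth kinase mTORC1. It was the one gene of the 10 called in all 4 comparisons against control, and it was lower in each. The values were 128, 125, 98.8, 124 and 132 CPM in the ATF3 knockouts, 67.2 and 90.4 CPM in the ATF4 knockouts, 74.97, 115, 122 and 99.3 CPM in the CEBPG knockouts and 115, 144, 117, 128 and 122 CPM in the CHOP knockouts, against 169, 153, 149.9 and 199 CPM in the controls. None of the 16 knockout libraries reached the lowest control. Sesn1 overlaps an unconfirmed gene model on its own strand, which is not among the counted genes. The log2 fold changes were -0.47 (SE 0.14, adjusted p = 0.0105) with ATF3 targeted, -1.09 (SE 0.19, adjusted p = 9.85e-05) with ATF4, -0.70 (SE 0.15, adjusted p = 0.000535) with CEBPG and -0.42 (SE 0.14, adjusted p = 0.02) with CHOP. Leaving out control replicate 8 ended the CHOP call (-0.36, adjusted p = 0.0676). Since no other libraries came from batch 2, a difference shared by all knockouts cannot be told apart from batch. Sex differed from the controls in the ATF3, CEBPG and CHOP knockouts only, since both ATF4 libraries held reads of the Y-linked gene Ddx3y (61.5 and 64.6 CPM) like the controls (46.5 to 107 CPM).

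Phlda3 (chromosome 1, 135766119 to 135769136, plus strand), whose product competes with the kinase Akt for membrane lipids, had its highest values in the ATF4 knockouts. It had 18.5, 21.5, 22.95, 21.2 and 20.6 CPM in the ATF3 knockouts, 30.6 and 52.6 CPM in the ATF4 knockouts, 7.90, 10.1, 16.2 and 18.8 CPM in the CEBPG knockouts and 18.9, 19.7, 16.8, 18.3 and 20.3 CPM in the CHOP knockouts, against 21.6, 14.9, 24.5 and 12.1 CPM in the controls. Both ATF4 libraries exceeded all others but differed widely from each other. The rise in the ATF4 knockouts was 1.18 (SE 0.31, adjusted p = 0.00491), and without ATF4 replicate 3 it was 0.74 and did not pass (adjusted p = 0.181). Trp53inp1 (chromosome 4, 11156431 to 11174379, plus strand), which encodes a p53-induced nuclear stress protein, was called in none of the 7 comparisons. It ranged from 22.0 to 34.1 CPM in the ATF3, from 18.3 to 18.6 CPM in the ATF4, from 35.1 to 47.2 CPM in the CEBPG and from 14.5 to 40.5 CPM in the CHOP knockouts, against 15.05 to 39.2 CPM in the controls. Its log2 fold change against control of 0.07 in the ATF3 knockouts had a 95% interval from -0.53 to 0.66, so changes of that size were not detectable with these libraries.

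Within batch 3, Cdkn1a and Mdm2 were higher in the CEBPG knockouts than in both the ATF3 and the CHOP knockouts. In ATF3 over CEBPG knockouts 1 gene was higher (Gadd45a) and 4 were lower (Trp53, Mdm2, Cdkn1a and Gadd45b), or 50% of the 10 beside 20.4% of all genes called. In CEBPG over CHOP knockouts 3 were higher (Mdm2, Cdkn1a and Ccng1) and 0 lower (1 at an unadjusted p below 0.05 and 0 by DESeq2), or 30% beside 26.7% of all genes. That share lies near that of all genes and carries no statement about the pathway. In ATF3 over CHOP knockouts 2 were higher (Gadd45a and Ccng1) and 0 lower (1 at an unadjusted p below 0.05 and 1 by DESeq2), or 20% beside 2.26% of all genes. Of all genes, 10.1% were called higher and 10.2% lower in ATF3 over CEBPG knockouts, 13.5% and 13.2% in CEBPG over CHOP knockouts, and 1.51% and 0.756% in ATF3 over CHOP knockouts. Libraries did not overlap for 5, 2 and 3 of the 10 genes in these comparisons, beside 22.3%, 21.2% and 8.06% of all genes. The median log2 fold change of the 10 genes was -0.33, 0.42 and -0.01 in these comparisons, beside 0.00, -0.03 and -0.01 over all genes. Each pair of comparisons shares a group of libraries.

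**Figure D3:**
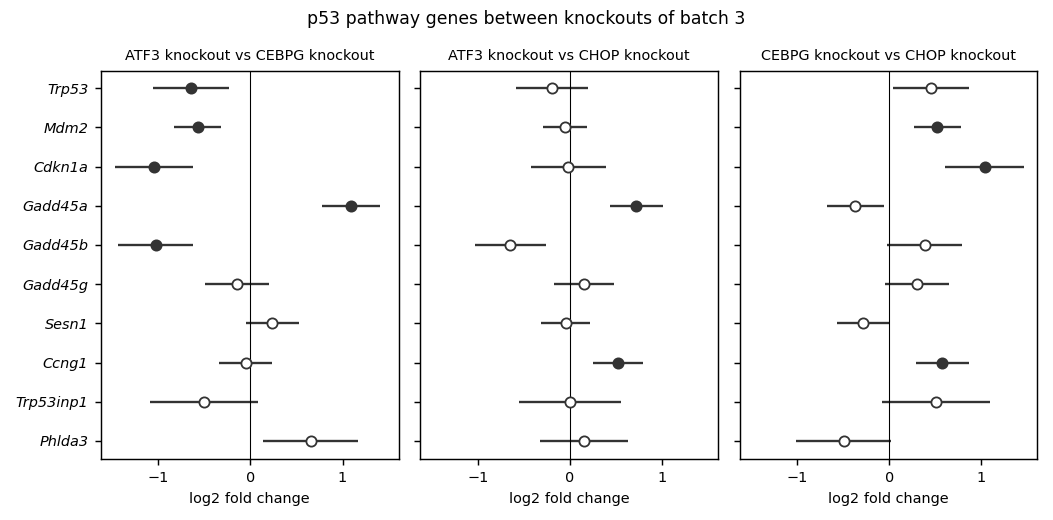
Log2 fold change (x axis) of each gene (y axis) in ATF3 over CEBPG, ATF3 over CHOP and CEBPG over CHOP knockouts, all of batch 3, with 95% intervals. Filled points have an adjusted p below 0.05; Cdkn1a lies at -1.05 in ATF3 over CEBPG, -0.02 in ATF3 over CHOP and 1.04 in CEBPG over CHOP knockouts.

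Cdkn1a averaged 33.6 ± 3.86 CPM (SD, n = 4) in the CEBPG knockouts and 16.4 ± 3.11 CPM (n = 5) in the CHOP knockouts, a log2 fold change of 1.04 (SE 0.21, adjusted p = 0.000596). Against the CEBPG knockouts the ATF3 knockouts, at 16.2 ± 3.01 CPM (n = 5), had -1.05 (SE 0.21, adjusted p = 0.000678). None of the CEBPG libraries overlapped with an ATF3 or CHOP library for this gene. The difference of ATF3 over CHOP knockouts was -0.02 (SE 0.20, adjusted p = 0.992), with a 95% interval from -0.42 to 0.39. Mdm2 followed the same order, with -0.57 (SE 0.12, adjusted p = 0.00158) in ATF3 over CEBPG knockouts and 0.52 (SE 0.12, adjusted p = 0.00273) in CEBPG over CHOP knockouts. For Mdm2 the CEBPG and CHOP libraries overlapped, with CHOP replicate 2 at 135.1 CPM and CEBPG replicate 10 at 133.4 CPM. All ATF3 libraries lay below all CEBPG libraries.

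Gadd45a separated the ATF3 knockouts from both other groups. It averaged 77.1 ± 5.03 CPM (n = 5) in the ATF3 knockouts against 36.2 ± 5.50 CPM (n = 4) in the CEBPG knockouts (log2 fold change 1.09, SE 0.15, adjusted p = 1.72e-05). Against the CHOP knockouts, at 46.7 ± 9.05 CPM (n = 5), the ATF3 knockouts had 0.72 (SE 0.14, adjusted p = 0.00456). In CEBPG over CHOP knockouts the value was -0.37 (SE 0.15, adjusted p = 0.0731). The antisense transcript E230016M11Rik was higher in ATF3 over CEBPG knockouts as well (0.70, adjusted p = 0.018) and was at 0.21 (adjusted p = 0.766) in ATF3 over CHOP knockouts.

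Gadd45b went the other way from Gadd45a in the ATF3 knockouts, with -1.03 (SE 0.20, adjusted p = 0.000568) over CEBPG knockouts. Over CHOP knockouts it was at -0.65 (SE 0.19, adjusted p = 0.0741) and did not pass, although all 5 ATF3 libraries lay below all 5 CHOP libraries. It passed with DESeq2 (adjusted p = 0.0238). Ccng1 averaged 168 ± 21.8 CPM (n = 5) in the ATF3 knockouts against 117 ± 17.4 CPM (n = 5) in the CHOP knockouts (0.52, SE 0.13, adjusted p = 0.0348). It did not pass when any 1 of ATF3 replicates 6 and 8 and CHOP replicates 1, 3 and 4 was left out (adjusted p between 0.0685 and 0.0999). In CEBPG over CHOP knockouts Ccng1 was 0.57 higher (SE 0.14, adjusted p = 0.00362). Trp53 was lower in ATF3 over CEBPG knockouts (-0.65, SE 0.20, adjusted p = 0.0229) and missed the threshold when any 1 of ATF3 replicates 7 and 8 and CEBPG replicates 8 and 10 was left out (adjusted p between 0.0623 and 0.0767). Trp53 in CEBPG over CHOP knockouts was at 0.45 (SE 0.20, adjusted p = 0.0994) and passed without CEBPG replicate 6 (0.63, adjusted p = 0.0129). Gadd45g, Sesn1, Trp53inp1 and Phlda3 were called in none of the comparisons of batch 3.

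Beyond the 10 genes, 33 other known p53 targets were tested, and 2 more, Eda2r and Tigar, were not among the counted genes. Against control 5 were higher and 7 lower in the ATF3 knockouts, 4 and 5 in the ATF4 knockouts, 9 and 4 in the CEBPG knockouts and 3 and 7 in the CHOP knockouts. Those counts are 36.4%, 27.3%, 39.4% and 30.3% of the list, beside the 33.4%, 31.3%, 33.4% and 33.5% of all genes given above. The list's median log2 fold change was 0.21, 0.01, 0.47 and -0.13, beside 0.06, 0.00, 0.06 and 0.01 over all genes. Plk2, a polo-like kinase of stressed cells and synapses, was higher in each knockout, at 1.25 with ATF3 targeted, 0.81 with ATF4, 1.04 with CEBPG and 1.73 with CHOP, and Fbxw7, a ubiquitin ligase subunit, was higher in each too (1.53, 0.72, 0.62 and 1.39 in the same order). Ptp4a3, a phosphatase, was lower in each, at -1.93, -2.003, -2.28 and -1.94, and so was Abhd4, a lipid hydrolase, at -0.95, -0.91, -1.24 and -1.60. Ddit4, which restrains mTORC1 and is also a stress response target of ATF4, was lower for ATF3 (-2.37), CEBPG (-1.87) and CHOP (-2.20). The antiproliferative gene Btg2 was lower for ATF3 (-0.75), ATF4 (-0.72) and CHOP (-0.82). The phosphatase gene Ppm1d, which feeds back on p53, was lower in each knockout, at -0.78, -1.48, -0.98 and -0.84. Zmat3, an RNA-binding protein gene, was higher for ATF4 (1.77), and the kinase gene Plk3 (1.58) and the apoptosis gene Bax (0.75) were higher for CEBPG. Dcxr, a carbonyl reductase gene, was higher for ATF3 (0.75), ATF4 (1.47) and CEBPG (0.74), and Ei24 for ATF3 (0.34) and CHOP (0.50).

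**Figure D4:**
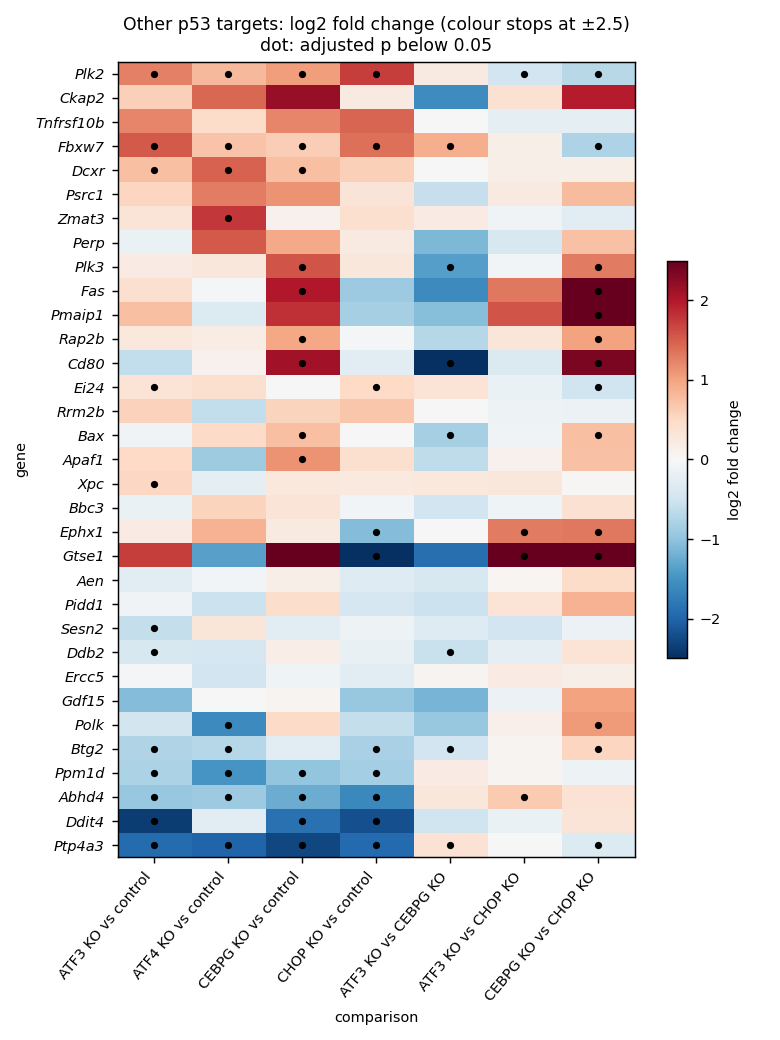
Log2 fold change (colour, limited to 2.5 in either direction) of 33 other p53 targets (y axis, ordered by their mean over the comparisons with control) in 7 comparisons (x axis). Dots mark an adjusted p below 0.05; Plk2 and Fbxw7 near the top and Ptp4a3, Abhd4 and Ppm1d near the bottom are marked in all 4 comparisons with control.

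Within batch 3 the same list held 2 higher and 5 lower genes in ATF3 over CEBPG knockouts, 3 and 1 in ATF3 over CHOP knockouts and 10 and 4 in CEBPG over CHOP knockouts. These are 21.2%, 12.1% and 42.4% of the list, beside 20.4%, 2.26% and 26.7% of all genes. Bax, which opens the mitochondrial outer membrane in apoptosis, averaged 152 ± 7.95 CPM (n = 4) in the CEBPG knockouts, against 90.6 ± 15.1 CPM (n = 5) in the CHOP knockouts (log2 fold change 0.74, adjusted p = 0.00118). In ATF3 over CEBPG knockouts Bax was at -0.83 (adjusted p = 0.000534). Plk3 averaged 71.5 ± 12.97 CPM in the CEBPG knockouts against 29.0 ± 5.47 CPM in the CHOP knockouts (1.304, adjusted p = 1.96e-05), and was at -1.37 in ATF3 over CEBPG knockouts. Btg2 was likewise higher in CEBPG over CHOP knockouts (0.54) and lower in ATF3 over CEBPG knockouts (-0.48), where Ddb2, a sensor of ultraviolet damage, was lower too (-0.56). Plk2 went the other way, at -0.70 in CEBPG over CHOP and -0.48 in ATF3 over CHOP knockouts. Fbxw7 was at -0.76 in CEBPG over CHOP and 0.90 in ATF3 over CEBPG knockouts. Ephx1, an epoxide hydrolase, was higher in ATF3 over CHOP knockouts (1.29) and in CEBPG over CHOP knockouts (1.31), and Abhd4 was higher in ATF3 over CHOP knockouts (0.65). Gtse1, a gene of dividing cells, was called higher in ATF3 and in CEBPG over CHOP knockouts, but its level was at most 0.0832 CPM in any CHOP library, and its fitted fold is not given.

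Genes that control p53 moved in both directions. Of 16 tested regulators, 1 was higher and 2 were lower in the ATF3, 2 and 3 in the ATF4, 5 and 3 in the CEBPG and 2 and 3 in the CHOP knockouts. The acetyltransferase gene Crebbp was higher in each knockout, at 0.73 with ATF3 targeted, 1.07 with ATF4, 0.50 with CEBPG and 0.99 with CHOP, and Kat5, another acetyltransferase, was lower for ATF3 (-0.67), CEBPG (-0.61) and CHOP (-0.63). Ppp1r13l, which encodes the p53 inhibitor iASPP, was lower in the same 3 knockouts, at -2.03, -2.25 and -2.27. The kinase gene Atm (1.25) and Rpl11, a ribosomal protein gene whose product inhibits Mdm2 (0.78), were higher in the CEBPG knockouts, and Mdm4, a relative of Mdm2, was lower in the ATF4 knockouts (-1.24). In batch 3, 1 and 2 regulators were called in ATF3 over CEBPG knockouts, 2 and 1 in CEBPG over CHOP knockouts and 0 in ATF3 over CHOP knockouts (1 at an unadjusted p below 0.05 and 0 by DESeq2). The first 2 of these are 18.8% of the list each, below the 20.4% and 26.7% of all genes.

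Of 26 repair and checkpoint genes 0 were higher (1 at an unadjusted p below 0.05 and 0 by DESeq2) and 4 lower in the ATF3, 1 and 6 in the ATF4, 2 and 3 in the CEBPG and 2 and 3 in the CHOP knockouts. H2afx, the histone variant that marks broken DNA when phosphorylated, was lower for ATF3 (-0.66), CEBPG (-0.95) and CHOP (-0.55). Rnf8, a ubiquitin ligase of the response to broken DNA, was lower in all 4 knockouts, at -0.65 with ATF3 targeted, -0.70 with ATF4, -0.67 with CEBPG and -0.62 with CHOP. Prkdc, the kinase of end joining, was higher for CEBPG (1.45) and CHOP (1.05), and so was the DNA ligase gene Lig1 (0.97 and 0.87). Called repair genes made up 15.4%, 26.9%, 19.2% and 19.2% of their list in the knockouts of ATF3, ATF4, CEBPG and CHOP, and called regulators 18.8%, 31.3%, 50% and 31.3%, beside 33.4%, 31.3%, 33.4% and 33.5% of all genes. Within batch 3, 2 repair genes were lower and 0 higher (2 at an unadjusted p below 0.05 and 0 by DESeq2) in ATF3 over CEBPG knockouts, and 2 were higher and 1 lower in CEBPG over CHOP knockouts. These are 7.69% and 11.5% of the list, below the 20.4% and 26.7% of all genes. In ATF3 over CHOP knockouts 0 were called (2 at an unadjusted p below 0.05 and 0 by DESeq2).

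Markers of other cells differed between the same groups, and their part in the p53 results was not tested. Summed over 14 markers, rods had 4184 to 4453 CPM in the ATF3, 3975 to 5048 CPM in the ATF4, 3254 to 5516 CPM in the CEBPG and 5300 to 8822 CPM in the CHOP knockouts, against 36843 to 58801 CPM in the controls, and all 14 were called lower in each knockout. The 16 markers of T and NK lymphocytes summed to 298 to 345 CPM in the ATF3, 13.8 to 69.5 CPM in the ATF4, 1587 to 2529 CPM in the CEBPG and 309 to 463 CPM in the CHOP knockouts, against 5.76 to 24.4 CPM in the controls. The CEBPG knockouts, with the highest Trp53, Mdm2, Bax and Plk3, thus had the highest lymphocyte sum too, and the highest sum of 12 markers of dividing cells, at 200.5 to 252 CPM, against 130 to 178 CPM in the ATF3, 118 to 128 CPM in the ATF4 and 114 to 150 CPM in the CHOP knockouts and 132 to 162 CPM in the controls. Monocyte and neutrophil markers, 10 in all, were highest there as well, with sums of 800.2 to 969.9 CPM in the ATF3, 457 to 834 CPM in the ATF4, 2029 to 2541 CPM in the CEBPG and 297 to 517 CPM in the CHOP knockouts, against 622 to 1019.5 CPM in the controls. Amacrine cell markers were higher in every knockout, with 11, 10, 10 and 11 of 12 called higher for ATF3, ATF4, CEBPG and CHOP as targets. Their sums were 6215 to 6522 CPM in the ATF3, 4863 to 5508 CPM in the ATF4, 3297 to 4554 CPM in the CEBPG and 7254 to 8755 CPM in the CHOP knockouts, against 1688 to 2921 CPM in the controls. Prf1 of the lymphocyte list had no read in the ATF4 and control libraries. Müller glia markers, 13 in all, summed to means of 12881 CPM (ATF3), 13395 (ATF4), 9529 (CEBPG), 7286 (CHOP) and 8044 (control). Those of microglia, 15 in all, had 7185, 8101, 8859, 5568 and 6805 CPM in that order. Both exceed the ganglion cell sums below, though sums of different genes give no cell shares. In ATF3 over CEBPG knockouts 8 Müller glia markers were called higher and 1 lower. Of the microglia markers, 13 were higher and 0 lower in CEBPG over CHOP knockouts. Of 12 bipolar cell markers, 8 were called higher and 1 lower in ATF3 over CHOP knockouts, with a median log2 fold change of 1.27. In ATF3 over CEBPG knockouts 10 were higher and 0 lower (1 at an unadjusted p below 0.05), with a median of 1.65. Of the 14 rod markers, 9 were lower and 0 higher in ATF3 over CHOP knockouts, where 2.26% of all genes were called. The 12 ganglion cell markers summed to 673 to 703 CPM in the ATF3, 639 to 701 CPM in the ATF4, 432 to 566 CPM in the CEBPG and 507 to 632 CPM in the CHOP knockouts, against 534 to 696 CPM in the controls. Nefl, a neurofilament gene, was the largest part of this sum in every group. It averaged 404 ± 5.94 CPM in the ATF3 knockouts against 270.3 ± 42.1 CPM in the controls. The ATF4, CEBPG and CHOP knockouts had 223 ± 6.02, 275 ± 49.4 and 328 ± 33.7 CPM. Single ganglion cell markers moved in both directions: 3 of 12 were called higher and 5 lower with ATF3 targeted, 5 and 0 with ATF4, 1 and 5 with CEBPG, and 2 and 4 with CHOP. Their median log2 fold change was -1.08, 0.69, -0.52 and -0.65 in that order. Rbpms, a common ganglion cell marker, averaged 8.99 ± 2.41 CPM in the ATF3 knockouts and 44.4 ± 1.63 CPM in the ATF4 knockouts, against 22.9 ± 10.3 CPM in the controls. The CEBPG and CHOP knockouts had 29.4 ± 11.2 and 13.5 ± 2.48 CPM of Rbpms. Of the ganglion cell transcription factors listed, Pou4f2 was low throughout, with no read in the CEBPG knockouts and at most 3.73 CPM in any other library. Each ATF4 library held at least 24 reads of it. Pou4f3 was low too, at most 1.89 CPM. The others had more: Isl1 means were 65.9 CPM (ATF3), 72.5 (ATF4), 33.2 (CEBPG), 24.8 (CHOP) and 88.9 (control). Pou4f1 means in that order were 1.53, 16.9, 4.22, 3.18 and 4.63 CPM. In bulk samples, fewer cells of a type and less RNA per cell cannot be told apart.

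**Figure D5:**
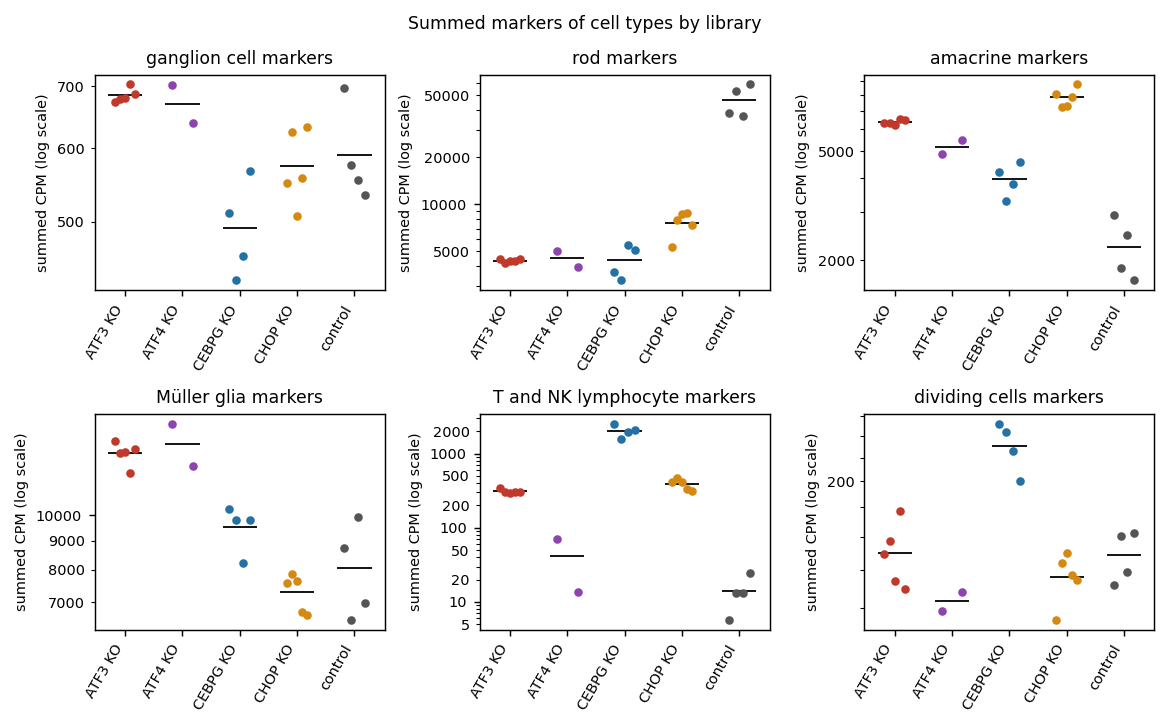
Summed CPM of 6 marker lists (y axes, log scale, each with its own range) by library in the 4 knockouts and the control (x axis). Points are libraries and bars group means; rod markers are highest in the controls, and lymphocyte and dividing cell markers in the CEBPG knockouts.

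The levels of the targeted genes do not check the labels, and a small edit need not lower a transcript. Atf3 averaged 38.3 ± 6.68 CPM in the ATF3 knockouts against 113 ± 9.28 CPM in the controls, and Atf4 154 ± 7.96 CPM in the ATF4 knockouts against 301 ± 71.7 CPM in the controls. Ddit3 averaged 65.5 ± 6.13 CPM in the CHOP knockouts against 88.3 ± 14.7 CPM in the controls, and all 3 were called lower. Cebpg, at 74.6 ± 21.2 CPM in the CEBPG knockouts against 83.3 ± 7.81 CPM in the controls, was not (adjusted p = 0.491). These falls were not particular to the gene targeted: Atf3, Atf4, Cebpg and Ddit3 were all called lower than control in both the ATF3 and the CHOP knockouts. Atf3 averaged 36.9 ± 14.6 CPM in the CHOP knockouts and Ddit3 61.9 ± 3.24 CPM in the ATF3 knockouts. Atf4 averaged 87.9 ± 8.35 CPM in the ATF3, 130 ± 13.9 CPM in the CEBPG and 106 ± 10.4 CPM in the CHOP knockouts, below its mean in the ATF4 knockouts.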

How the data were processed

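Ganglion cells were sorted from papain-digested retinas for SMART-Seq v4 libraries, per the labels' protocols. The submitters' processing notes name STAR, Picard, HTSeq, edgeR and mm10, without versions. The sources used here give neither annotation nor strand setting. Deposited by the authors were raw read counts per gene, and a second deposited table of log2 (as taken here) fold changes with p-values and FDR values. The deposited sample sheet gives batch, sex, age and the duplicate fraction of read pairs (48.0 to 57.6 percent). A further 42 of its per-sample columns were not used.

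Groups follow the titles, and 1 library with contradictory labels entered none. The sheet lists ATF4 replicate 1 as female, yet it had 61.5 CPM of Ddx3y and 0.26 CPM of Xist. Whether each library is a separate animal is unstated. The p-values thus cover spread among libraries, which may be technical. Within each group, no library was a copy of another.

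Counts were fitted in R 4.3.3 with edgeR 4.0.16 (filterByExpr with a minimum count of 10, TMM, glmQLFit robust, 15 residual degrees of freedom, glmQLFTest), with Benjamini-Hochberg adjustment over 16797 genes. Every adjusted p is from this test unless DESeq2 is named. SE is the log2 fold change over the root of F, and 95% intervals use the test's degrees of freedom. The step was tested on simulated counts of independent libraries without batch differences, so that test does not bear on batch. Alternatives were RLE and upper-quartile scaling, no filter, DESeq2 1.42.0, fewer groups, a replicate block and leaving out libraries. Floors cover counting error only. Positions and exon lengths come from GENCODE.

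The 10 genes and all lists were chosen with earlier results of these data known. Named genes of the other lists are up to 4 per direction for p53 targets and up to 2 for regulators and repair genes, by adjusted p. Further genes resembling Trp53, Mdm2 and Cdkn1a are the 3 nearest by mean absolute difference of log2 CPM deviations, at a mean of at least 5 CPM. Gtse1, Ppm1d in the ATF3 and CHOP knockouts, Crebbp and Dcxr in the CEBPG knockouts and the antisense transcript were named outside this rule after their values were seen.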

Additional observations from a re-analysis of the deposited data

Results flagged for a closer look

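Sesn1 in ATF3 knockout replicate 7 was at 98.8 CPM, apart from 124 to 132 CPM in the other ATF3 knockouts. Its gap to the nearest library was 0.74 of the range of the group. Chance alone marks about 1 in 20 groups, and 40 groups of libraries were looked at in this way.

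The library that entered no group, titled as a control with a CHOP knockout genotype, had 51.2 CPM of Trp53, above the 16.1 to 30.1 CPM of the controls. Cdkn1a in it was at 106 CPM, above the 22.0 to 40.7 CPM of the controls and above every other library. Ccng1 was at 211 CPM in it, above the 123 to 161 CPM of the controls. Other genes in it lay below every control, namely Gadd45a at 37.9 CPM (controls 75.4 to 102 CPM), Sesn1 at 109.6 CPM (controls 149.9 to 199 CPM) and Gadd45b at 28.4 CPM (controls 31.5 to 53.4 CPM).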

How the results depend on the processing

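Of 70 results for single genes, 28 were called. Of these, 18 were called under every alternative run, 10 were lost under at least 1, and 0 changed direction. Of the 42 not called, 9 passed under at least 1 alternative and 11 changed sign. The number of genes called in ATF3 over CHOP knockouts was 681 with DESeq2 and 1232 in a fit of both groups alone, against 380 in the text. With single libraries left out it lay between 232 and 353, and the pathway genes called between 1 and 2. In ATF4 knockouts over control it lay between 3358, without ATF4 replicate 1, and 5592; the lone ATF4 library left is then assumed to vary like the other groups.

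Replicate numbers did not pair libraries: same-numbered libraries of 2 groups correlated between -0.03 and 0.03 in their deviations. With the number as a replicate block, 1895 genes were called in ATF3 over CEBPG knockouts, and 2719 genes and 1 of the 10 in CHOP knockouts over control. In ATF3 knockouts over control 4284 genes and 3 of the 10 were called, and Ccng1 was at 0.0746 in ATF3 over CEBPG knockouts.

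Signs turned only for values that were not called. Gadd45g in ATF3 over CEBPG knockouts was at 0.0285 without CEBPG replicates 6 and 8, an alternative chosen after seeing the data. Trp53inp1 in ATF3 over CHOP knockouts was at 0.0141 with upper-quartile scaling and 0.0043 in the 14 libraries of batch 3. With single libraries left out, ATF3 over CHOP knockouts ranged from -0.15 to 0.19 for Trp53inp1, -0.0858 to 0.0865 for Cdkn1a, -0.0933 to 0.0563 for Mdm2 and -0.066 to 0.0345 for Sesn1. Ccng1 ranged from -0.12 to 0.0229 in ATF3 over CEBPG knockouts. Over control, Cdkn1a ranged from -0.0062 to 0.32 for CEBPG, Gadd45b from -0.75 to 0.0036 for ATF4, Phlda3 from -0.15 to 0.20 for CHOP, and Trp53inp1 from -0.14 to 0.29 for ATF3 and -0.15 to 0.28 for CHOP. The cause was not tested.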

Other observations

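The authors' deposited table gives fewer calls for these genes. At an FDR below 0.05 it holds Cdkn1a for ATF3 (log fold change -2.38, FDR 0.00996) and CHOP (-2.29, FDR 0.0444), Sesn1 for ATF4 (-1.25, FDR 0.0491) and Gadd45a for CEBPG (-0.88, FDR 0.0225). Of 17100 genes in the authors' deposited table, 7.99% are below that FDR with ATF3 targeted, 5.77% with ATF4, 22.1% with CEBPG and 7.30% with CHOP. The sources used here give no model, reference group or log base for it. The sign was the same as in the edgeR fit for 6, 7, 9 and 9 of the 10 genes. Trp53 for ATF3 is one that differs, at -0.27 in the authors' deposited table and 0.38 in the edgeR fit.

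Genes whose levels followed those of Trp53 most closely over the 20 libraries were Zdhhc18, Tomm34 and Picalm, with mean absolute differences of 0.17, 0.19 and 0.20 on the log2 scale, against a median of 0.48 over 12568 genes. For Mdm2 they were D130020L05Rik, Rbm5 and Clk1 (0.13, 0.14 and 0.15, against 0.45), and for Cdkn1a Cxcl16, Hopx and Nfkbib (0.26, 0.26 and 0.27, against 0.64). A gene at a constant level would differ by 0.30 from Trp53, 0.28 from Mdm2 and 0.52 from Cdkn1a, less than these medians.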
